A study of Rattus norvegicus with 56 samples.

Results

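Expression of 7 genes that encode subunits of the GABA-A receptor was measured in 2 brain regions of rats, hippocampus and parietal cortex, 48 h after intermittent theta burst stimulation (iTBS) or sham handling. The genes were Gabra2, Gabra3, Gabra4, Gabra5, Gabrb1, Gabrb2 and Gabrd, and they were chosen by name, as the non-control probes whose accession leads through RefSeq to one of these symbols. All 7 genes had a probe, 9 probes in all out of 45598 distinct probes on the array, which name 16581 genes. The probes were A_44_P1080245 and A_44_P378252 for Gabra2, A_43_P11806 for Gabra3, A_43_P15434 for Gabra4, A_44_P414565 for Gabra5, A_44_P360501 for Gabrb1, A_44_P920519 and A_64_P099059 for Gabrb2, and A_43_P11897 for Gabrd. Of the 2 probes of Gabra2 and of Gabrb2 the first named was the main one. Another 12 GABA-A subunit genes listed for comparison had a probe as well.

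During iTBS a magnetic coil held above the head gives short bursts of pulses grouped in trains, and for sham animals the coil stayed at a distance. All animals were male Long-Evans rats, young (Y, 6 to 7 months) or aged (26 to 27 months), and the aged rats had been classed by their performance in a water maze as unimpaired (AU) or impaired (AI). Both sham and stimulated rats were lightly anesthetized with isoflurane and received dexmedetomidine, a sedative, at 0.035 mg/kg when young and 0.03 mg/kg when aged. The tissue, dorsal hippocampus and the neocortex beneath the center of the coil, was taken at this time and each region was hybridized separately to a 1-colour array. Sham groups held 4 animals each (Y_Sham, AU_Sham and AI_Sham), and the stimulated groups held 4 (Y_iTBS), 5 (AU_iTBS) and 3 (AI_iTBS). The same animals gave both regions.

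The 48 first arrays of these 24 animals entered the tests, and 6 of 7 technical repeats were averaged into their animal first. The cortical repeat of AI_iTBS 2 and 1 array whose title and description named different groups were left out. In 6 of the 7 repeats the array was most like the first array of its own animal (r from 0.54 to 0.92 over the 500 most variable probes), but the cortical repeat of AI_iTBS 2 was most like AI_Sham 2 (r = 0.615, against 0.03 with its own animal). Which animals the cortical arrays of AI_iTBS 2 and AI_Sham 2 came from therefore cannot be told apart with certainty, and Gabra4 in AI cortex is also given without each of them. Averaging in the cortical repeat of AI_iTBS 2 as well changed none of the calls given here. The animals were scanned in a first batch of 15 and in later batches of 9, and every group held animals of both. Of 7 slides, 2 held arrays of both regions, and no animal had both of its first arrays on the same slide. All 9 subunit probes were well above background on all 56 arrays and none was saturated. The number of animals limits the precision. Levels below are normalized log2 signals, centered on each array's own mean, so that a value of 0 is the mean of all non-control probes. They compare 1 probe between samples, never 1 gene with another.

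The GABA-A receptor is a chloride channel built from several subunits around a central pore, and it opens when gamma-aminobutyric acid (GABA), the main inhibitory transmitter of the forebrain, binds at the interface of alpha and beta subunits. The alpha subunit sets where the receptor sits and how it responds. Receptors with the alpha-2 subunit, encoded by Gabra2, and the alpha-3 subunit, encoded by Gabra3, are mostly synaptic. Receptors with alpha-5, encoded by Gabra5, lie largely outside synapses in hippocampal pyramidal cells, and alpha-4 (Gabra4) joins with delta (Gabrd) in extrasynaptic receptors that carry tonic inhibition in dentate granule cells and elsewhere. Beta-1 (Gabrb1) and beta-2 (Gabrb2) contribute the other side of the GABA site. Bulk tissue was measured, so fewer cells of a type and less RNA per cell cannot be told apart.

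The promoters of 3 genes are printed here, Gabra5 and Gabra3 because they had the widest differences between the regions in either direction, and Gabra4 because it had the smallest p of the members in cortex. Each runs from 250 bases before to 50 bases after the start of the gene, 5′ to 3′ on the coding strand, from RefSeq (assembly GRCr8). Capitals mark the matches to 4 motifs searched on both strands: the Egr-type GCGNGGGCG, the cAMP response element TGACGTCA, the GC box GGGCGG and CCAAT.
Gabra5 (chr1:117516557-117516856, minus strand): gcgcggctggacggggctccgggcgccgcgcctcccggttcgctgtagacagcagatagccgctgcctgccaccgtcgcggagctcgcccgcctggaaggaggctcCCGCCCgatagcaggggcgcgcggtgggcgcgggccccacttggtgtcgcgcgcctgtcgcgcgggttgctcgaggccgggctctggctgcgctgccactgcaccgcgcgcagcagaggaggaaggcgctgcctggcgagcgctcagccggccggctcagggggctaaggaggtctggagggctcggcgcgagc
Gabra3 (chrX:155543821-155544120, minus strand): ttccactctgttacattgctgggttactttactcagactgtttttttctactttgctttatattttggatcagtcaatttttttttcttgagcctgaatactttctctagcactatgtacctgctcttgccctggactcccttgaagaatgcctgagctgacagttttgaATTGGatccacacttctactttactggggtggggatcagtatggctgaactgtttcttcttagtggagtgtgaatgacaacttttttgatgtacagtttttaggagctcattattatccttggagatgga
Gabra4 (chr14:36944497-36944796, plus strand): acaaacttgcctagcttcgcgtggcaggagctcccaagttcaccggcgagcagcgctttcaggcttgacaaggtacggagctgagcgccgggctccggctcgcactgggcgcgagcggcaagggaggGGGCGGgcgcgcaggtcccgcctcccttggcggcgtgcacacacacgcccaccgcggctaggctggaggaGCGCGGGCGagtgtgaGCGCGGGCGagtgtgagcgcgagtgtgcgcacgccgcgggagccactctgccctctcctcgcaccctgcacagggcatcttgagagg

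In the Gabra5 promoter 76.33% of bases were G or C, with 42 CG pairs and 1 GC box. The Gabra4 promoter, at 70.67% and 35 CG pairs, held 2 Egr-type matches and 1 GC box. The Gabra3 promoter was at 39.33% with no CG pair and 1 CCAAT match. The median over 33469 rat promoters was 51.67% and 7 CG pairs, and the Egr-type motif was present in 4.98%, TGACGTCA in 1.83%, GGGCGG in 33.1% and CCAAT in 37.5% of them. Among the other members with an entry, Gabrd (73.67%, 40 CG pairs) held 4 GC boxes, Gabrb1 (49.33%, 11 CG pairs) held 1 CCAAT, and Gabrb2 (44%, 9 CG pairs) held none of the 4 motifs. A match describes the letters of the window only.

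The first comparison asked how the subunits differed between hippocampus and parietal cortex of the same animals. In the 12 sham animals Gabra5, Gabra2 and Gabrb1 were higher in hippocampus, Gabra3, Gabrd and Gabrb2 were higher in cortex, and Gabra4 did not pass the test. Of the 9 probes, 8 were called by limma at an adjusted p under 0.05, 4 in each direction, beside 35.8% of the 33790 probes tested (19.2% higher and 16.7% lower in hippocampus). The median difference over all probes tested was 0.03 on the log2 scale.

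Gabra5 had the widest gap toward hippocampus of the 7 genes. Its level in the sham animals ran from 2.27 to 3.48 in hippocampus (median 2.92) and from 0.57 to 1.54 in cortex (median 1.08), so the regions did not overlap. Hippocampus exceeded cortex in 12 of 12 animals, by 1.86 on the log2 scale (SE 0.15, 95% confidence interval 1.55 to 2.18, 3.64-fold, adjusted p = 2.87e-09 by limma). Over all 24 animals, stimulated ones included, the difference ranged from 0.46 to 2.34 with a median of 1.69, and it was above 0 in 24 of 24.

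Gabra2, the other alpha subunit higher in hippocampus, lay between 3.49 and 4.28 there (median 3.96) and between 2.65 and 3.77 in cortex (median 3.06). The ranges overlapped, yet each animal was higher in its own hippocampus. The difference was 0.78 (SE 0.09, interval 0.59 to 0.98, 1.72-fold, adjusted p = 8.62e-07 by limma), and the second Gabra2 probe, made to the same accession, gave 0.52 (adjusted p = 0.000226 by limma) with 11 of 12 animals higher in hippocampus. The 2 probes moved the same way between regions, but across the 24 animals of one region their levels hardly followed each other (r = -0.19 in hippocampus and -0.11 in cortex, and 0.06 and 0.28 with the scan batch means removed).

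Gabra3 showed the opposite pattern to Gabra5. In sham animals it lay from -0.97 to 0.19 in hippocampus (median -0.36) and from 0.71 to 1.70 in cortex (median 1.18). No animal had as much in hippocampus as in cortex. The difference was -1.54 (SE 0.17, interval -1.90 to -1.18, 2.90-fold lower in hippocampus, adjusted p = 3.76e-07 by limma), and over all 24 animals it stayed between -2.67 and -0.24.

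Gabra4, the partner of the delta subunit, ran from 3.30 to 4.14 in hippocampus (median 3.75) and from 1.99 to 4.35 in cortex (median 3.92). The difference of -0.02 (SE 0.12, interval -0.28 to 0.23, adjusted p = 0.9 by limma) changed sign with the animals kept. Hippocampus was higher in 5 of 12 sham animals and in 8 of all 24. The lowest cortical level, 1.99, was that of AI_Sham 1, whose difference of 1.62 was the highest of the 24.

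The beta subunits moved in opposite directions. Gabrb1 lay from 6.17 to 6.76 in hippocampus (median 6.39) and from 5.62 to 6.52 in cortex (median 6.11), over 11 animals, since its single spot was marked as an outlier on the cortical array of Y_Sham 4 and that animal left the fit of Gabrb1. Hippocampus was higher in 10 of 11, by 0.40 (SE 0.09, interval 0.22 to 0.58, 1.32-fold, adjusted p = 0.00119 by limma). Gabrb2 lay from 5.57 to 6.04 in hippocampus (median 5.83) and from 6.27 to 6.86 in cortex (median 6.61), with no overlap. Its difference was -0.77 (SE 0.07, interval -0.92 to -0.62, 1.71-fold lower in hippocampus, adjusted p = 2.14e-08 by limma), in the same direction in all 12. The second Gabrb2 probe, from another transcript accession, gave -0.72 (adjusted p = 0.000252 by limma), with 2 of 12 animals higher in hippocampus.

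Gabrd, the delta subunit, was likewise lower in hippocampus in 12 of 12 sham animals. Its level lay from 5.44 to 5.88 in hippocampus (median 5.65) and from 6.28 to 6.93 in cortex (median 6.63). Between the highest hippocampus and the lowest cortex there was a gap, and the difference was -0.96 (SE 0.07, interval -1.11 to -0.82, 1.95-fold, adjusted p = 4.55e-10 by limma).

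**Figure D1:**
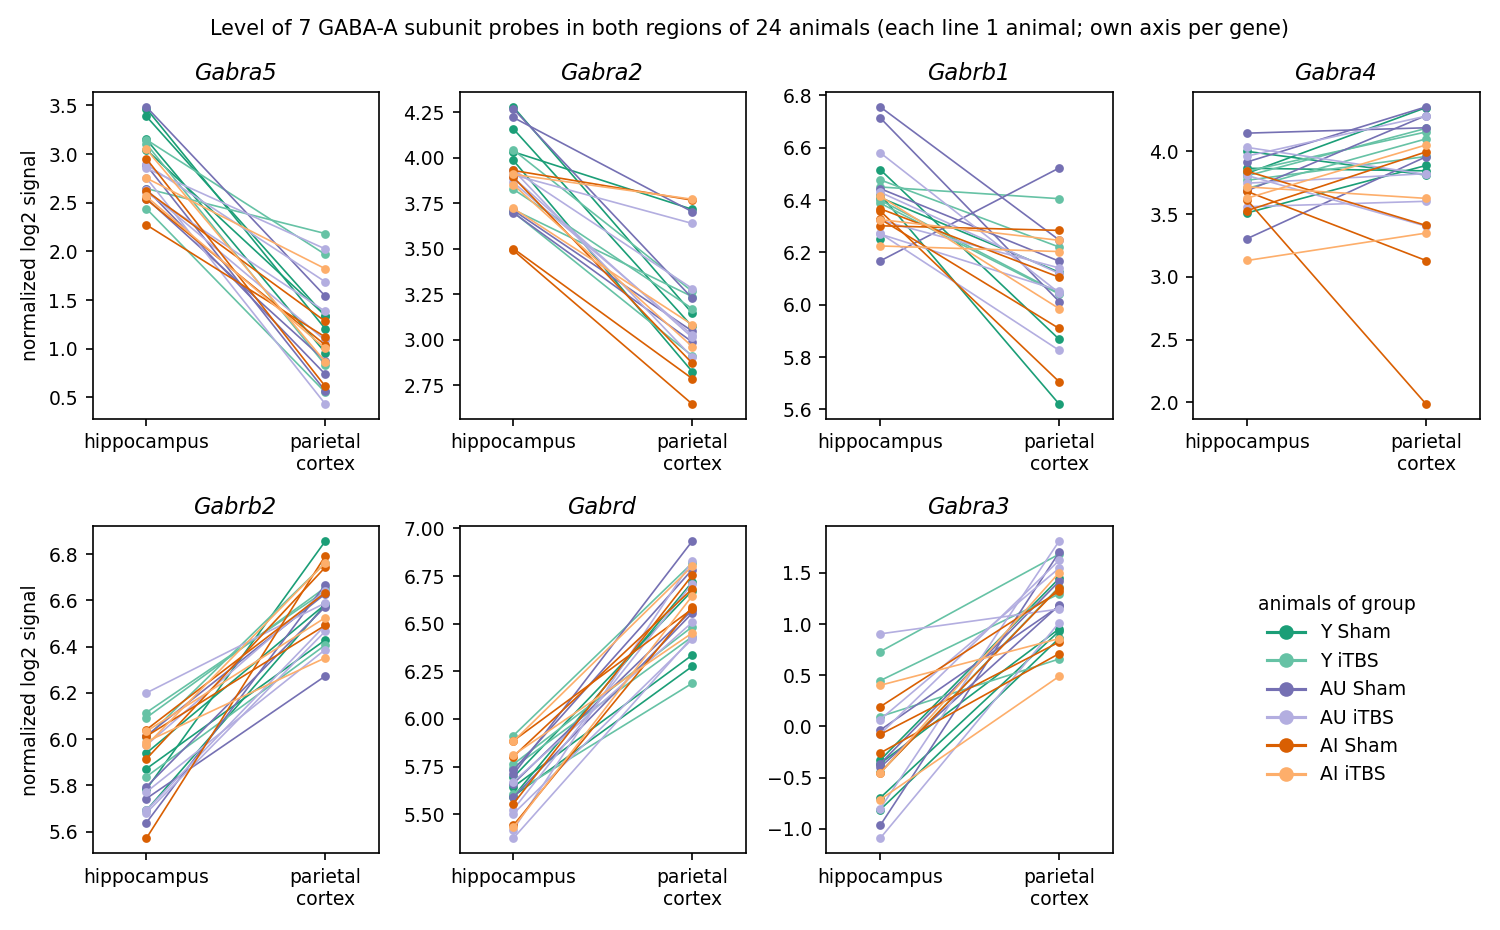
Normalized log2 signal of the 7 subunit genes in hippocampus and parietal cortex; each line joins the regions of 1 of 24 animals, colored by group, and each gene has its own axis. Lines fall in 24 of 24 animals for Gabra5 and Gabra2 and rise in 24 of 24 for Gabrb2, Gabrd and Gabra3, while those of Gabra4 cross.

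The order of the genes recurred in the stimulated animals, which shared no animal with the sham group. There 8 of 9 probes were again called, 4 higher and 4 lower in hippocampus (32.5% of all probes, 17.1% higher and 15.4% lower), with Gabra5 at 1.48, Gabra2 at 0.65, Gabrb1 at 0.26, Gabrb2 at -0.60, Gabrd at -0.91 and Gabra3 at -1.29, while Gabra4 was at -0.16 (adjusted p = 0.364 by limma). Gabrb1 was the closest to the threshold among the called probes (adjusted p = 0.0255 by limma, 12 of 12 animals higher in hippocampus).

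Young and aged sham animals gave alike directions for the 6 genes called in both. In the 4 young sham animals 7 of 9 probes were called, 3 higher and 4 lower (19.4% of all probes, 10.3% higher and 9.14% lower), with Gabra5 at 2.05, Gabra3 at -1.60, Gabrd at -0.87, Gabra2 at 0.92, Gabrb2 at -0.79 and Gabrb1 at 0.58. In the 8 aged sham animals 8 of 9 were called, 4 higher and 4 lower (26.2%, 13.8% higher and 12.4% lower), with Gabra5 at 1.77, Gabra3 at -1.51, Gabrd at -1.01, Gabra2 at 0.71, Gabrb2 at -0.76 and Gabrb1 at 0.31. Gabra4 was at -0.17 in young and 0.05 in aged animals, neither called.

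**Figure D2:**
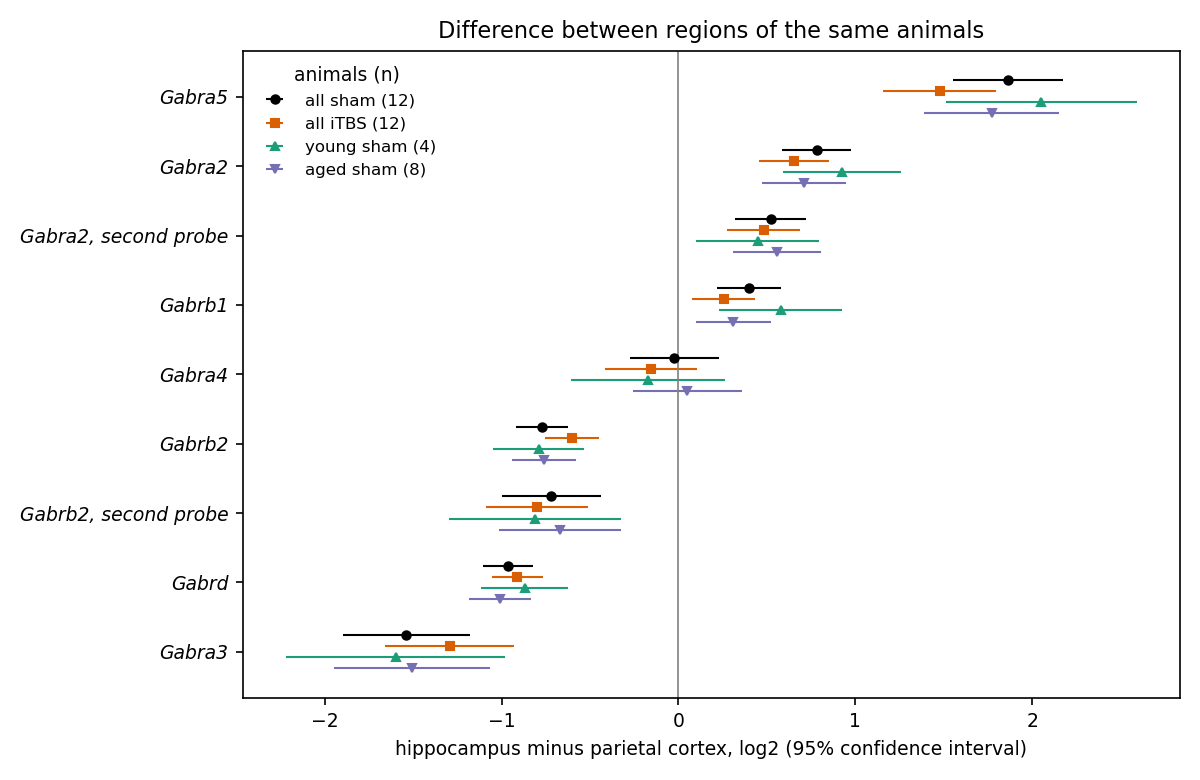
Difference between hippocampus and parietal cortex of the same animals on the log2 scale for the 9 subunit probes, with 95% confidence intervals from limma, in 12 sham, 12 stimulated, 4 young sham and 8 aged sham animals. The Gabra4 intervals cross 0 in all 4 sets, and those of the other 8 probes do not.

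The regions could be compared on a shared slide in 1 animal, Y_Sham 3, which was hybridized again with both regions on the same slide, in 2 such pairs. Gabra5 then differed by 2.21 and 2.06, against 2.30 between its first arrays on different slides. Gabra3 gave -1.71 and -1.92, against -1.26, and Gabrd gave -1.09 and -1.11, against -1.18. Gabra2 (1.22 and 1.14), Gabrb1 (0.80 and 0.85) and Gabrb2 (-1.04 and -1.06) also kept the direction of the first arrays (1.12, 0.75 and -1.11).

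Marker genes moved between the regions as well, where 19.2% of all probes were higher and 16.7% lower in hippocampus. Of the CA pyramidal cell markers 8 of 9 were higher in hippocampus (Fibcd1 by 4.33 on the log2 scale). The mean level of 6 dentate markers ran from 3.82 to 4.39 in hippocampus and from 2.87 to 3.48 in cortex. C1ql2, 1 of them, was higher by 4.62 and does not stand for the list, whose other genes are not given singly. Of 10 cortical layer markers 6 were lower (Foxp2 by -3.08 and Lamp5 by -2.01) and 2 higher, Bcl11b among them at 1.79. Of 12 interneuron markers 8 were lower in hippocampus, among them Pvalb (-0.95), Sst (-0.86) and Vip (-1.83), and the mean level of that list ran from 4.67 to 5.21 in hippocampus and from 5.38 to 5.78 in cortex, without overlap. Oligodendrocyte markers were higher in hippocampus for 8 of 9 genes (list level 6.55 to 7.27, against 5.84 to 7.11 in cortex). Choroid plexus markers were higher for 6 of 10 (Ttr by 1.90 and Otx2 by 3.00, list level -1.22 to 3.22, against -1.99 to 1.03), and striatal markers were lower for 3 of 8. In the choroid plexus list Otx2 and Kcnj13 were well above background on 39 of the 48 first arrays, Clic6 on 15, Kl on 8 and Prlr on 4. That count and list level thus rest in part on dim probes, whose calls support nothing. Dlx2 of the interneuron list was well above background on 11. The part of these cell types in the subunit differences was not tested.

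Read along the chromosomes, adjacent subunit genes could differ in direction between the regions. On chromosome 1 Gabrg3 and Gabra5 are neighbors in the GRCr8 order of subunit genes, and they were at -0.999 and 1.86. On chromosome 14 Gabrb1 (0.40), Gabra4 (-0.02), Gabra2 (0.78) and Gabrg1 (0.26) follow each other, and 3 of these 4 passed the test, all higher in hippocampus. Gabrd lies apart from the other subunits on chromosome 5. No test was made of the order.

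The rest of GABA signaling was read from lists of 50 genes, of which 46 were tested between the regions of sham animals, 11 being higher and 11 lower in hippocampus (47.8%, beside 35.8% of all probes). Of the 40 genes well above background on all 48 first arrays, 8 were higher and 11 lower. Among the subunits outside the 7, 6 were that bright, of which 2 were higher, Gabrg1 among them, and 2 lower. Gabrg3 was lower by a difference of -0.999 (2.00-fold, adjusted p = 2.21e-06 by limma). A further 3 subunits, Gabrr3, Gabrr2 and Gabra6, were well above background on 19, 14 and 8 of the 48 first arrays, so that they passed the filter on dim probes through part of the arrays only and their calls, all higher in hippocampus, support nothing. Gabrr3 and Gabrr2, which encode rho subunits, were not well above background on any of the 12 cortical sham arrays and were so on 11 and 7 of the 12 hippocampal ones. Lower bounds on the fold toward hippocampus came to 1.70 for Gabrr3 and 1.32 for Gabrr2, from these same dim signals, and support nothing either.

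Among 4 tested genes of the metabotropic GABA-B receptor 3 were lower in hippocampus, Kctd8, an auxiliary subunit, at -1.86 and Gabbr2 at -0.65, while Gabbr1 was higher at 0.22. Gad1, which makes GABA, was the 1 gene called of 5 for synthesis and release, at -0.47 (adjusted p = 0.00135 by limma). Of 4 transporters Slc6a13 was called at -0.60 (adjusted p = 0.0467 by limma). Of 17 genes for anchoring and trafficking 4 were higher, led by Shisa7 (0.61) and Nlgn2 (0.37), and 2 were lower, Gabarapl1 (-0.43) and Plcl2 (-0.36). Of 6 genes of chloride transport Slc12a2, which brings chloride into cells, was higher at 0.24, whereas Slc12a5, which extrudes it from neurons, was lower at -0.49 and Stk39 at -0.22. Beside 35.8% of all probes, the share called was 100% for GABA-B genes and 50% for chloride transport. It was 35.3% for anchoring and trafficking, near that of all probes, and below it for transporters (25%) and for synthesis and release (20%).

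**Figure D3:**
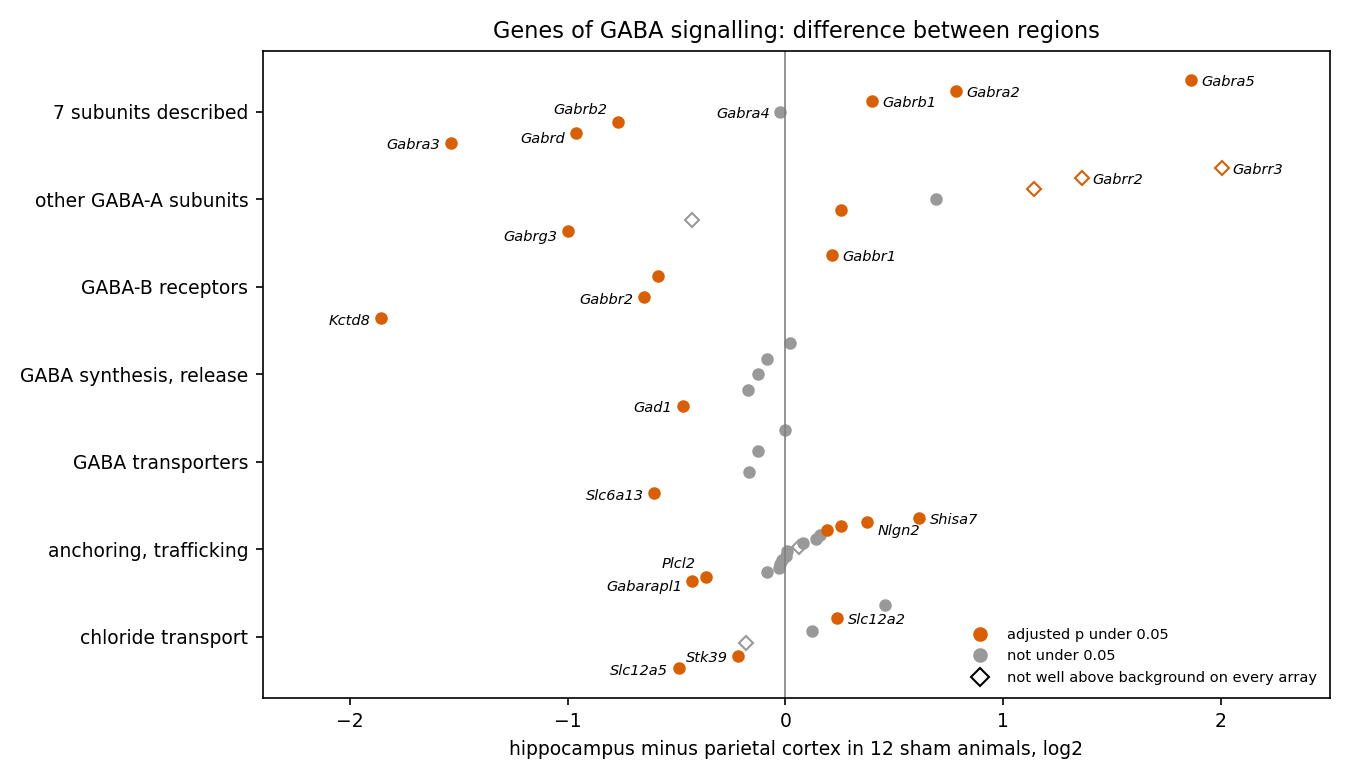
Difference between hippocampus and parietal cortex in 12 sham animals (log2 scale) for the 7 subunit genes and for 6 lists of GABA signaling genes; each point is 1 gene, with some genes of the lists not drawn, orange where the limma adjusted p was under 0.05 and open where the probe was not well above background on every first array. Gabra5 at 1.86 and Gabra3 at -1.54 mark the ends of the 7 subunits.

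Within a region the groups were put in the order of their means. In the order of the 6 group means, neighbors differed by more than the pooled SD of the animals in 2 places only, both main probes of alpha subunits. Small steps between neighbors do not show that the groups were alike. From highest to lowest mean the main probes spanned more than that SD, except Gabra2, Gabra5 and Gabrb2 in cortex. For Gabra2 in hippocampus the span was 0.41 and the pooled SD 0.19. For Gabra5 in hippocampus Y_Sham (3.26 ± 0.20, SD, n = 4) stood 0.37 above AU_Sham (2.89 ± 0.42, n = 4) with a pooled SD of 0.28, followed by Y_iTBS (2.83 ± 0.35, n = 4), AI_iTBS (2.79 ± 0.24, n = 3), AU_iTBS (2.75 ± 0.13, n = 5) and AI_Sham (2.60 ± 0.28, n = 4). The hippocampal mean of Gabra5 was 2.75 over the first scan batch and 3.02 over the later ones. Y_Sham held 2 later animals, AU_iTBS 3 and each other group 1. For Gabra4 in cortex AU_Sham (4.19 ± 0.17), Y_iTBS (4.10 ± 0.10), Y_Sham (3.97 ± 0.25), AU_iTBS (3.78 ± 0.33) and AI_iTBS (3.67 ± 0.35) were followed by AI_Sham (3.13 ± 0.84), which lay 0.54 below its neighbor with a pooled SD of 0.42.

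The remaining orders were drawn out with no such step. In hippocampus group means ran from 4.11 (Y_Sham) to 3.70 (AI_Sham) for Gabra2, from 0.21 (Y_iTBS) to -0.55 (Y_Sham) for Gabra3 and from 3.82 (AU_iTBS) to 3.49 (AI_iTBS) for Gabra4. For Gabrb1 they ran from 6.52 (AU_Sham) to 6.32 (AI_iTBS), for Gabrb2 from 6.01 (Y_iTBS) to 5.80 (AU_Sham) and for Gabrd from 5.76 (Y_iTBS) to 5.50 (AU_iTBS). The span of the 6 means was thus widest for Gabra3.

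In cortex Gabra5 ran from 1.38 (Y_iTBS) to 0.93 (AU_Sham) and Gabra3 from 1.43 (AU_iTBS) to 0.95 (AI_iTBS). Gabra2 ran from 3.27 (AI_iTBS) to 3.02 (AI_Sham), and Gabrb1 from 6.24 (AU_Sham) to 5.87 (Y_Sham, 3 animals). Gabrb2 (6.67 in AI_Sham to 6.52 in AU_iTBS) and Gabrd (6.71 in AU_Sham to 6.48 in Y_iTBS) spanned the least.

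The next comparison asked whether iTBS changed the subunits. None of the 9 probes was called in any of the 4 hippocampal contrasts (limma, 0% of 32522 probes called in each of them) or in the 4 cortical ones (limma, 0% of 32623 probes in young, aged and AU animals and 0.00613% in AI animals). At an unadjusted p under 0.05 there were 3 of 9 in young hippocampus, where 4.51% of all probes reached it, and 1 in aged hippocampus (2.48%). There were 0 in AU (2.28%) and AI hippocampus (1.95%), and 0 in young (2.7%), aged (2.92%), AU (8.37%) and AI cortex (4.09%).

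The 3 probes in young hippocampus were those of Gabra5, Gabra3 and Gabra2. Gabra5 was at 3.39, 3.47, 3.15 and 3.04 in Y_Sham and at 3.15, 2.44, 2.65 and 3.1 in Y_iTBS. All 4 stimulated animals lay below the sham mean, although the ranges overlapped. The difference was -0.43 (SE 0.20, interval -0.84 to -0.02, adjusted p = 0.931 by limma), and it was -0.37 in the first scan batch and -0.28 in the later ones.

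Gabra3 went the other way in the same animals. It was at -0.36, -0.81, -0.70 and -0.33 in Y_Sham and at -0.45, 0.73, 0.45 and 0.10 in Y_iTBS. Each stimulated animal lay above the sham mean and 3 of 4 above every sham animal, with a difference of 0.76 (SE 0.35, interval 0.03 to 1.48, adjusted p = 0.931 by limma). The batches differed in this gene: its hippocampal mean was 0.01 over the first batch and -0.64 over the later ones, Y_Sham held 2 animals of each and Y_iTBS 3 of the first and 1 later, and the difference was 0.94 in the first batch, 0.14 in the later ones and 0.59 with the batch as a term.

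Gabra2 was at 4.16, 4.28, 3.99 and 4.03 in Y_Sham and at 4.04, 3.72, 3.70 and 3.83 in Y_iTBS, with 1 stimulated animal inside the sham range. The difference was -0.29 (adjusted p = 0.931 by limma), but the second Gabra2 probe was at 0.13. The hippocampal mean of the main Gabra2 probe was 3.81 over the first batch and 4.03 over the later ones. Y_Sham held 2 later animals and Y_iTBS 1. Over all 9 probes the differences in young hippocampus ran from -0.43 to 0.76 with a median of 0.13.

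In these young hippocampi the CA pyramidal marker list stood at 5.81, 5.94, 5.97 and 5.80 in Y_Sham and at 5.70, 5.65, 5.68 and 5.76 in Y_iTBS, without overlap. The choroid plexus list, which holds dim probes, was at 1.36, -0.05, 0.53 and -0.03 in Y_Sham and at -0.06, -0.55, -1.22 and -0.46 in Y_iTBS, also without overlap. The striatum list was at 3.08, 2.61, 2.89 and 2.86 in Y_Sham and at 3.29, 3.28, 3.37 and 3.32 in Y_iTBS, without overlap as well. Of 12 marker lists these 3 did not overlap, the first and second being higher in the sham animals and the third higher in the stimulated ones. How many of all probes separated these groups is not given here, so the count is not read further. The part of these lists in the subunit values was not tested.

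In aged hippocampus the smallest p was that of the dimmer Gabrb2 probe, at -0.34 (SE 0.16, adjusted p = 0.978 by limma), while the main Gabrb2 probe was at 0.09 and Gabrb1 at -0.08 (adjusted p = 0.978 by limma). Within the AU animals Gabrd was at -0.17 (SE 0.10, adjusted p = 1 by limma) and Gabrb1 at -0.15 (adjusted p = 1). Within the AI animals the dimmer Gabrb2 probe was at -0.41 and Gabra4 at -0.17 (adjusted p = 1 for both by limma). The 9 differences ran from -0.34 to 0.09 in aged, from -0.26 to 0.24 in AU and from -0.41 to 0.19 in AI hippocampus.

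In young cortex Gabrb1 had the smallest p. It was at 6.12, 5.87 and 5.62 in the 3 Y_Sham animals with a value and at 6.41, 6.04, 6.04 and 6.22 in Y_iTBS. The 4 stimulated animals were above the sham mean but overlapped the sham range, and the difference was 0.31 (SE 0.16, interval -0.03 to 0.64, adjusted p = 1 by limma). The second Gabra2 probe was next at 0.22 (adjusted p = 1 by limma), and the 9 differences ran from -0.04 to 0.31.

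In aged cortex the 2 probes of smallest p were Gabra5 at 0.30 (SE 0.25) and the dimmer Gabrb2 probe at -0.15 (adjusted p = 1 for both by limma). In AU cortex they were the second Gabra2 probe at -0.42 (SE 0.22, adjusted p = 0.579) and Gabra4 at -0.41 (SE 0.27, adjusted p = 0.609). In AI cortex they were Gabra4 at 0.54 (SE 0.31, adjusted p = 1) and Gabra2 at 0.25 (adjusted p = 1), all from limma. Leaving out 1 animal gave 0.0049 to 0.50 for Gabra2. The Gabra4 difference in AI cortex was 0.16 without AI_Sham 1, 0.83 without AI_Sham 2 and 0.36 without AI_iTBS 2. The Gabra4 differences in AU and AI cortex thus had opposite signs, and neither passed the test.

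**Figure D4:**
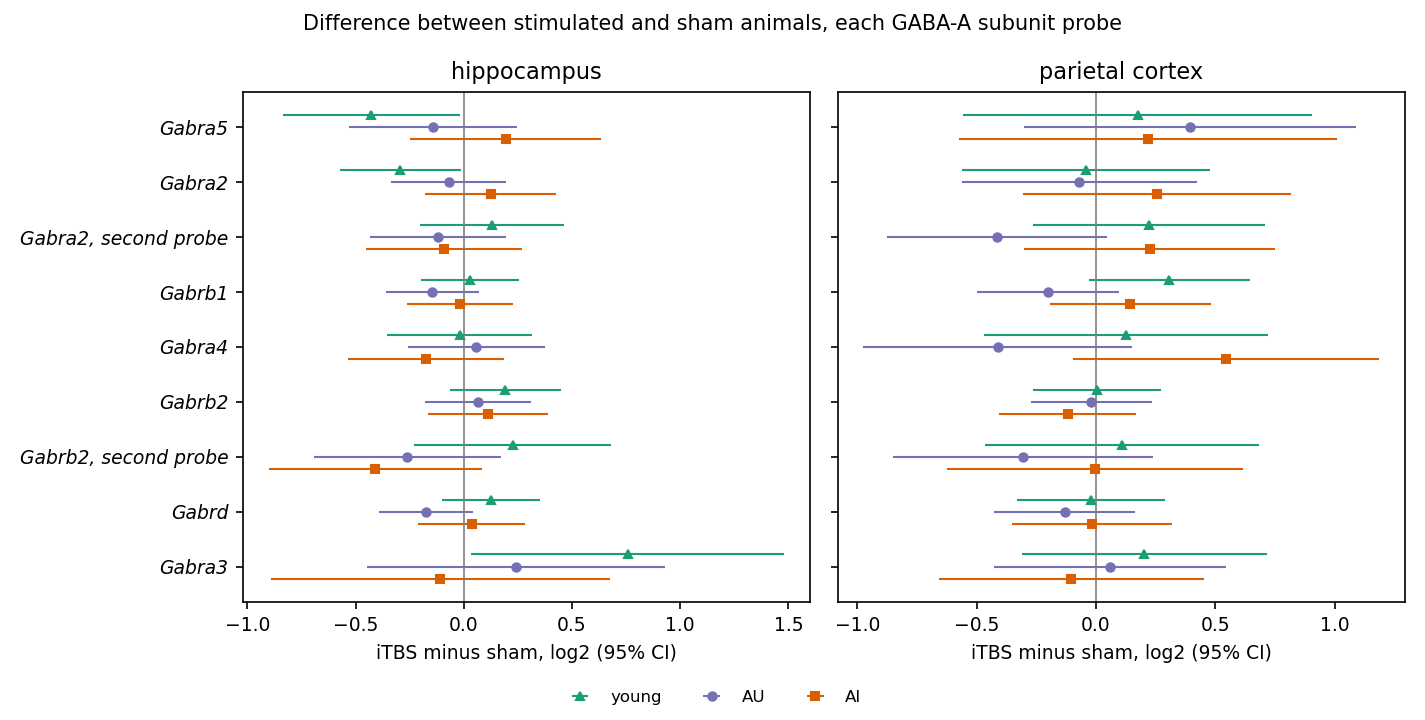
Difference between stimulated and sham animals (log2 scale) for the 9 subunit probes, with 95% confidence intervals from limma, for young, AU and AI animals in hippocampus (left) and parietal cortex (right). The intervals of Gabra5, Gabra2 and Gabra3 in young hippocampus exclude 0 before adjustment for the number of probes, and no other interval shown does.

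Among the sham animals the study allowed comparison of aged with young rats, and of AI with AU rats. No subunit probe was called by limma, where 0.00307% of all probes were called in hippocampus for aged against young and for AU against young, and 0% for AI against young and AI against AU. In cortex, too, none was called by limma, beside 0.104% of all probes for aged, 0.049% for AU and 0.0766% for AI against young, and 0% for AI against AU. At an unadjusted p under 0.05 there were 2 of 9 for aged (8.18% of all probes), 0 for AU (5.07%) and 2 for AI (9.12%) against young and 0 for AI against AU (4.04%) in hippocampus, and 0 for aged (9.46%), 2 for AU (8.65%) and 1 for AI (8.08%) against young and 3 for AI against AU (6.44%) in cortex.

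In hippocampus the subunits with the smallest p by age were Gabra5 and Gabra2. Gabra5, at 3.39, 3.47, 3.15 and 3.04 in Y_Sham, was at 3.48, 2.54, 2.89 and 2.64 in AU_Sham and at 2.62, 2.95, 2.27 and 2.53 in AI_Sham. The AI_Sham and Y_Sham animals did not overlap, while AU_Sham 1 was above all the young ones. How many of all probes separated AI_Sham from Y_Sham is not given here, and 9.12% had an unadjusted p under 0.05. For Gabra5 aged minus young was -0.52 (SE 0.17, adjusted p = 0.579 by limma), with 1 of 8 aged animals above the young mean. AI minus young was -0.67 (SE 0.20, interval -1.08 to -0.26, 1.59-fold, adjusted p = 0.465 by limma), and AU minus young was -0.37 (adjusted p = 0.861 by limma). The AI difference was -0.51 in the first scan batch and -0.81 in the later ones, in which AI_Sham had 1 animal. Y_Sham had 2 animals in the later batches and AU_Sham 1, and the hippocampal mean of Gabra5 was higher in those batches.

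Gabra2 was at 4.16, 4.28, 3.99 and 4.03 in Y_Sham, at 4.22, 3.71, 4.27 and 3.70 in AU_Sham and at 3.93, 3.89, 3.50 and 3.49 in AI_Sham. Again AI_Sham lay below Y_Sham without overlap, by the main probe only. The differences from young were -0.27 in aged (SE 0.12, adjusted p = 0.603 by limma) and -0.41 in AI animals (SE 0.14, adjusted p = 0.517 by limma), whereas the second Gabra2 probe stood at 0.12 and -0.01. AI_Sham held 1 animal of the later batches and Y_Sham 2, and the main Gabra2 probe had a higher hippocampal mean in those batches. In AU animals the dimmer Gabrb2 probe was next to Gabra5, at 0.41 (adjusted p = 0.861 by limma), and at 0.18 to 0.59 on leaving out 1 animal. Between AI and AU animals Gabra2 differed by -0.27 and Gabrb1 by -0.18 (adjusted p = 1 for both by limma). Beside these values, the CA pyramidal list was at 5.83, 5.62, 5.88 and 5.69 and the choroid plexus list at 2.56, -0.28, 1.82 and -0.41 in AI_Sham, and their part was not tested.

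In cortex Gabra4 had the smallest p of the members. It was at 3.89, 3.84, 3.81 and 4.35 in Y_Sham, at 3.96, 4.28, 4.19 and 4.35 in AU_Sham and at 1.99, 3.99, 3.13 and 3.41 in AI_Sham. AI_Sham 1 was far below the others, and AI_Sham 2 at 3.99 was the single AI animal within the AU range. AI minus AU was -1.06 (SE 0.29, interval -1.66 to -0.47, 2.09-fold, adjusted p = 0.575 by limma), and -0.68 without AI_Sham 1. Without AI_Sham 2 it was -1.35. The difference was -0.76 in the first scan batch and -1.97 in the later ones, where it rested on AI_Sham 1 and AU_Sham 1 alone.

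A selection rule was rebuilt here from the study's description, combining unadjusted tests on z-scores with a minimum ratio and a looser false discovery rate. Under it Gabra4 was the 1 member probe selected for AI against AU in cortex, beside 0.18% of all probes. For young iTBS against sham the rebuilt rule selected 59 probes in hippocampus and 41 in cortex, fewer than the genes the study counts. Compared with young animals Gabra4 in AI_Sham was at -0.84 (SE 0.29, adjusted p = 0.482 by limma) and at -0.46 without AI_Sham 1. The cortical thalamus list stood at 1.23, 1.28, 1.24 and 1.97 in AU_Sham and at 1.31, 0.95, 1.13 and 1.26 in AI_Sham, the oligodendrocyte list at 5.98, 6.55, 6.38 and 6.22 and at 6.27, 6.48, 6.81 and 7.11, the striatum list at 4.10, 3.97, 3.77 and 3.58 and at 3.96, 3.84, 3.91 and 3.82, and the choroid plexus list at -1.05, -0.75, -0.88 and -0.44 and at -1.29, -1.24, -0.16 and 0.33. These lists overlapped between AU and AI animals, and their part was not tested.

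The dimmer Gabrb2 probe also had an unadjusted p under 0.05 in cortex. It was at 1.19, 2.06, 2.06 and 1.95 in AU_Sham, at 1.29, 1.35, 0.71 and 0.57 in AI_Sham and at 0.47, 0.93, 1.18 and 2.11 in Y_Sham. AI minus AU was -0.83 (SE 0.28, adjusted p = 0.653 by limma) and AU minus young was 0.64 (SE 0.28, adjusted p = 0.535 by limma), but the main Gabrb2 probe gave 0.13 for AI minus AU. The 2 Gabrb2 probes did not follow each other across the 24 animals (r = 0.12 in cortex and -0.24 in hippocampus, and -0.03 and -0.24 with the scan batch means removed).

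Gabrb1, at 6.12, 5.87 and 5.62 in 3 Y_Sham animals, was at 6.52, 6.17, 6.25 and 6.01 in AU_Sham cortex, a difference of 0.37 (SE 0.16, adjusted p = 0.545 by limma). For aged against young cortex the smallest p were those of Gabrb1 at 0.25 (adjusted p = 0.599 by limma) and Gabrd at 0.18 (adjusted p = 0.665 by limma). The second Gabra2 probe was at -0.56 (adjusted p = 0.707 by limma) for AI against AU and at -0.27 (adjusted p = 0.782 by limma) for AI against young.

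**Figure D5:**
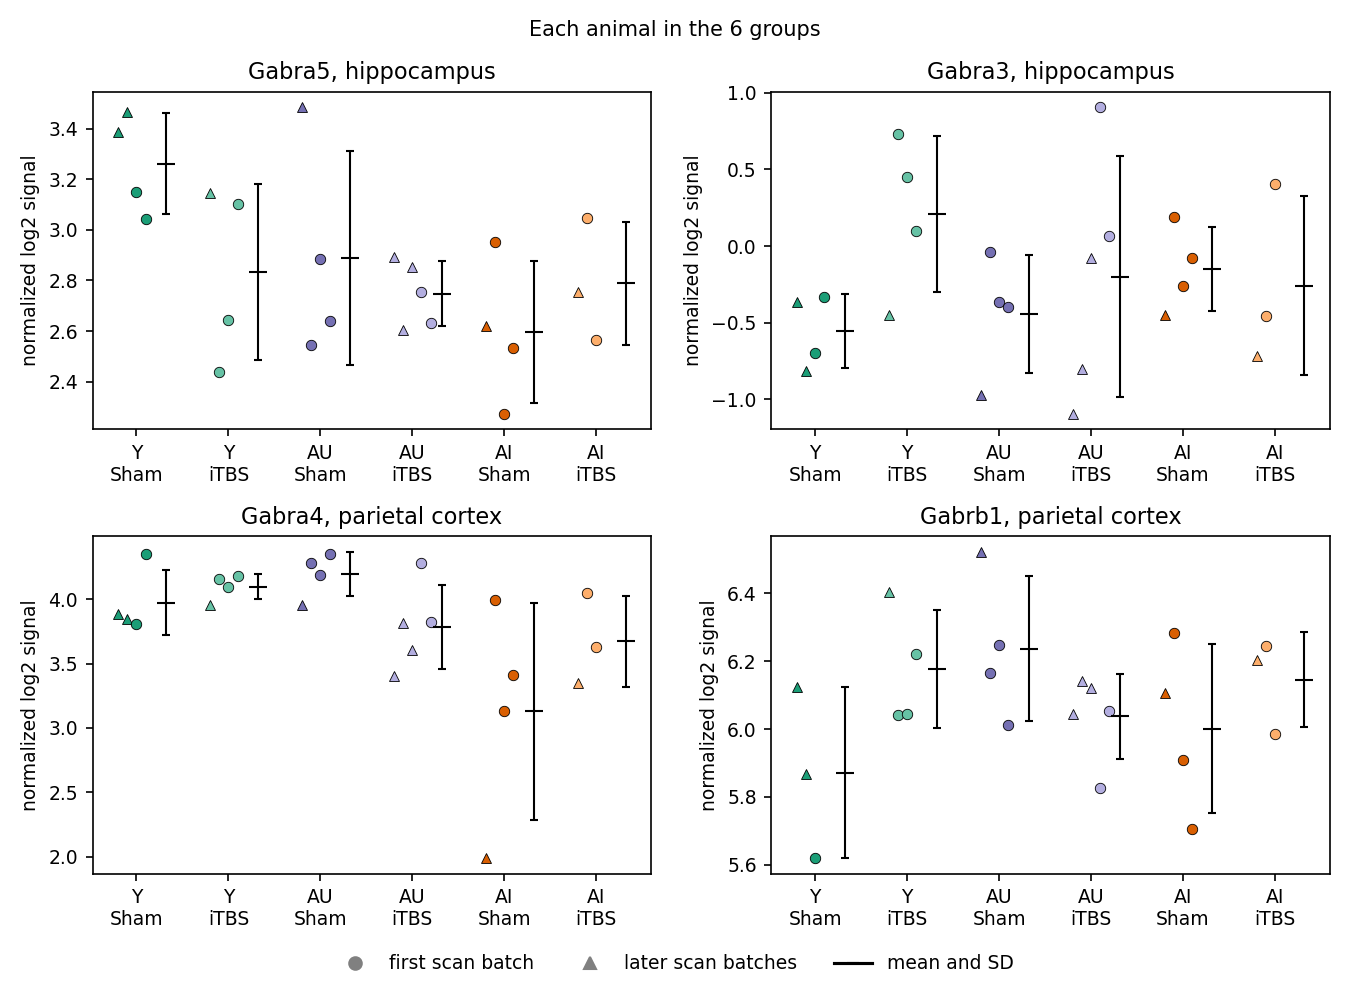
Normalized log2 signal of each animal in the 6 groups for Gabra5 and Gabra3 in hippocampus and Gabra4 and Gabrb1 in parietal cortex, with circles for the first scan batch, triangles for later batches and the mean and SD beside the points. Y_Sham lies above AI_Sham for Gabra5, and AI_Sham 1 at 1.99 lies far below the other animals for Gabra4.

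Whether these effects differed from each other was tested with interaction terms. Between aged and young animals the effect of iTBS differed for no subunit probe, with 0% of all probes called by limma in either region. At an unadjusted p under 0.05 there was 1 of 9 in hippocampus (4.29% of all probes), the dimmer Gabrb2 probe at -0.56 (adjusted p = 0.801 by limma), followed by Gabra2 at 0.32 (adjusted p = 0.801 by limma), and 0 of 9 in cortex (3.21%), where Gabrb1 was at -0.33 and the second Gabra2 probe at -0.32 (adjusted p = 1 for both by limma).

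The difference between the regions did not change detectably with age or stimulation. Against age none of the 9 probes was called by limma (0.00296% of all probes, and 0 of 9 at an unadjusted p under 0.05 beside 6.45%). Gabrb1 was at -0.27 (interval -0.67 to 0.14, adjusted p = 0.778 by limma) and Gabra2 at -0.21 (adjusted p = 0.798 by limma). Against stimulation none was called in young (0% of all probes, and 0 of 9 at an unadjusted p under 0.05 beside 2.65%) or aged animals (0%, and 0 of 9 beside 2.28%). In young animals Gabra5 was at -0.60 (SE 0.37, interval -1.37 to 0.16, adjusted p = 1 by limma), and in aged ones at -0.28 (adjusted p = 1 by limma). Leaving out 1 animal gave -0.88 to -0.27 in young and -0.43 to -0.12 in aged animals. The next probes were Gabrb1 at -0.33 in young and the main Gabrb2 probe at 0.16 in aged animals, with the same adjusted p.

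By group, the region difference of Gabra5 was 2.05 ± 0.25 in Y_Sham, 1.45 ± 0.80 in Y_iTBS, 1.96 ± 0.27 in AU_Sham, 1.43 ± 0.56 in AU_iTBS, 1.58 ± 0.52 in AI_Sham and 1.56 ± 0.63 in AI_iTBS (mean ± SD). The spread between animals was thus as wide as the steps between the groups. That of Gabrd ran from -1.08 ± 0.23 in AU_iTBS to -0.72 ± 0.14 in Y_iTBS. That of Gabra3 ran from -1.81 ± 0.62 in AU_Sham to -1.04 ± 0.54 in Y_iTBS.

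Of the other genes of GABA signaling, 46 were tested in hippocampus and 42 in cortex, and limma called 0 of them in any stimulation or age contrast.

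Across the 24 animals some subunits rose and fell together within a region. With the scan batch means removed, Gabra2 and Gabra5 had r = 0.76 in hippocampus, Gabra4 and Gabrb1 0.57, and Gabra3 and Gabrb2 0.50. Among main probes the highest in cortex were Gabra2 with Gabrd and Gabra2 with Gabrb1, both at r = 0.48. In cortex those 3 hippocampal pairs stood at 0.08 for Gabra2 and Gabra5, 0.34 for Gabra4 and Gabrb1 and -0.46 for Gabra3 and Gabrb2, and the second Gabra2 probe stood at -0.22 against Gabra5 in hippocampus. These are descriptions over animals that share groups, slides and scan batches, and no p is given.

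Among 14929 genes well above background on all first hippocampal arrays, those most like a member over the 24 animals, after removal of the batch means, were Cdk5 (r = 0.91) and Slc35e3 (0.91) for Gabra5, Gyg1 (0.87) and Cd2bp2 (0.86) for Gabra2, and Rab27b (0.81), the second in order, for Gabra4. For Gabra3 they were Syt2 (0.77) and Il36rn (0.76), for Gabrb1 Wasf1 (0.84) and Lrrc7 (0.84), for Gabrb2 Sstr1 (0.90) and Mapk6 (0.89), and for Gabrd Phf24 (0.83) and Zfp316 (0.81).

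Among 14427 such genes in cortex they were Flrt2 (0.94) and Usp29 (0.91) for Gabra4, Erbb4 (0.92), a neuregulin receptor of interneurons, and Fgf14 (0.88) for Gabra3, and Nlgn1 (0.83) and Negr1 (0.82) for Gabra2. For Gabra5 they were Bmal2 (0.84) and Mettl25b (0.70), for Gabrb1 Crmp1 (0.88) and Wasf1 (0.83), for Gabrb2 Npy1r (0.76) and Mios (0.75), and for Gabrd Tdrkh (0.88) and Snap47 (0.87). Wasf1 was thus the 1 gene named in both regions, each time for Gabrb1.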

How the data were processed

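Total RNA of each region was labeled with Cy3 and hybridized to Agilent rat arrays, which the authors read with Feature Extraction 12.0.3.1. Each deposited file gives the processed signal intensity of 62976 features (58717 non-control), after background subtraction. In a second deposited table the authors give each spot a z score, its log2 intensity minus the mean of the array, divided by the SD of the array, and these values matched those computed here within 0.005. The scores tested here used the same formula over the non-control probes instead of all features. They were scaled by 4.08125, the average SD over arrays, so that differences read as log2. Before this, spots flagged as outliers (267 to 1448 per array) were left out and spots of a probe averaged. Between 60.7% and 69.7% of probes were well above background on an array.

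Probes well above background in at least 3 animals were tested with limma 3.58.1 (R 4.3.3) and Benjamini-Hochberg adjustment over all of them, at a threshold of 0.05. A model over 6 groups was fitted per region (18 residual degrees of freedom), and another to the within-animal region differences. Replicates are separate animals. Where a gene had 2 probes, the brighter was the main one. Every member was named between regions and the 2 probes of smallest p elsewhere. Alternatives changed the background correction, scaling, filter, batch, slide, repeats and animals. The members and lists were chosen with earlier results of these data known. Scripts were tested on simulated data. Through accessions RefSeq gave 21109 probes a symbol. Some genes of the lists are not reported here.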

Additional observations from a re-analysis of the deposited data

Results flagged for a closer look

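In 5 of 133 sets of animals tested, 3.76%, the highest or lowest animal stood apart from the rest of its group by Dixon's test, and chance alone gives about 1 in 20. In the cortex of Y_Sham 4, Gabra3 was at 1.45 (other Y_Sham animals 0.86 to 0.95) and Gabra4 at 4.35 (others 3.81 to 3.89). The difference between hippocampus and cortex of Gabra2 in the same animal was 0.32, against 1.09 to 1.16 in the other Y_Sham animals. The second, dimmer Gabrb2 probe was at 1.04 in the cortex of Y_iTBS 1 (others 1.34 to 1.39) and at 1.19 in that of AU_Sham 1 (others 1.95 to 2.06). Y_Sham 4 thus gave 3 of the 5 values, and it was also the animal whose cortical Gabrb1 spot was marked as an outlier. Over 24612 probes its cortical profile had a median correlation of 0.971 with those of other animals. Cortical profiles ran from 0.967 (AU_iTBS 2) to 0.988 in this measure, and AI_Sham 1, low in cortical Gabra4, was at 0.976. The part of this in the outlying values was not tested.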

How the results depend on the processing

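Of 973 recomputed counts of called subunit probes 968 stayed within 1.5 times the value given, and of 3005 recomputed single differences 2946 kept their direction and side of the threshold, 35 lost the call, 3 gained it and 21 changed sign. Outside the comparisons between regions of sham, stimulated, young sham and aged sham animals each count given was 0. A recount of 0 was taken as unchanged there. Hardly any probe of the array was called in those contrasts, so such counts could barely move and say little about stability. With the later scan batches only, an alternative chosen after seeing the data that keeps 9 animals, the probes called between regions were 4 in sham, 4 in stimulated, 3 in young sham and 3 in aged sham animals. The study's selection rule, as rebuilt here, gave 1 for AI against AU cortex. Gabra5, Gabra3, Gabrd and the main Gabrb2 probe were called between regions of sham animals in all 39 alternatives, with ranges of 1.63 to 1.91, -1.99 to -1.19, -1.01 to -0.82 and -0.84 to -0.62. Gabra2 and Gabrb1 lost that call in the later batches alone (0.60 and 0.12). Gabrb1 was called in 31 of 39 alternatives in aged sham, 32 in stimulated and 35 in young sham animals. It lost the call in aged sham and stimulated animals under the authors' z scores, with the slide as a random block and in the later batches, in stimulated animals also under normexp, and in young ones in either batch alone. Leaving out AI_Sham 3 or 4 or AU_Sham 2, 3 or 4 (0.24 to 0.31) ended it in aged sham animals, AI_iTBS 3 or Y_iTBS 2 or 3 (0.21 to 0.24) in stimulated and Y_Sham 2 or 3 (0.54 and 0.47) in young ones.

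None of the differences that changed sign under an alternative was called, other than that of Gabrb1 between regions of aged sham animals, and the cause was not tested. The difference of Gabra4 between regions became 0.26 (later batches) and 0.0041 (normexp) in sham animals, where leaving out 1 animal gave -0.14 to 0.088, and -0.094 (first batch) in aged sham animals, where leaving out 1 animal gave -0.13 to 0.22. Its AI iTBS difference in hippocampus was -0.29 to 0.0063 on leaving out 1 animal. In the first batch alone, Gabra2 by region and age became 0.094, Gabra5 by region and stimulation in aged animals 0.090, and Gabrd in aged against young cortex -0.0089. In the later batches alone, Gabra5 for AU against young hippocampus became 0.057, the second Gabra2 probe in young iTBS cortex -0.071, the dimmer Gabrb2 probe -0.080 (AU against young hippocampus) and 0.10 (AI against AU cortex), and Gabrb1 -0.047 (aged sham regions), 0.20 (AI against AU hippocampus), 0.28 (AU iTBS hippocampus) and 0.067 (aged iTBS hippocampus). With the mean of both probes, Gabrb2 by region and stimulation in aged animals became -0.011.

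Sham and stimulated animals share replicate numbers but are different animals. Deviations of same-numbered animals correlated at -0.15 to 0.52 in hippocampus and -0.43 to 0.56 in cortex, and all pairs were over 0.1 only for AI cortex, so the numbers were not taken as a pairing. With the replicate block the count of called probes between regions of sham animals stayed 8 and Gabra5 was at 1.86, and in AI cortex Gabra4 by iTBS was at 0.64, not called.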

Other observations

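One hippocampal array entered no group, since its description placed it among AU stimulated animals and its title among the young sham ones. On it Gabra5 was at 2.92, Gabra2 at 3.94 and 3.58 by its 2 probes, Gabra3 at 0.19, Gabra4 at 3.85, Gabrb1 at 6.25, Gabrb2 at 6.02 and 0.87, and Gabrd at 5.60. All 9 values lay within the hippocampal ranges of the 24 animals.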
